A study of Sus scrofa with 10 samples.

Results

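The cyclic nucleotide phosphodiesterases described here are 10 genes, PDE1A, PDE1C, PDE3A, PDE3B, PDE4A, PDE4B, PDE4D, PDE5A, PDE7A and PDE8A, measured in nuclear RNA of minipig cardiomyocytes. They were taken by gene name from the 35670 gene identifiers of the data. Each name matched 1 identifier, and all 10 were among the 17251 genes that entered the test. Cardiomyocytes had been sorted from the hearts of wild-type (WT) minipigs (Sus scrofa), and nuclear RNA had been extracted with TRIzol and made into libraries with a TruSeq kit. Libraries 8 to 10 came from animals given deoxycorticosterone acetate (DOCA) plus JK07, libraries 6 and 7 from animals given DOCA, and libraries 1 to 5 from controls given PBS. DOCA is a mineralocorticoid used to raise blood pressure in animals. JK07, per the title of the series, is an ERBB4 agonist, and ERBB4 is a neuregulin receptor of cardiomyocytes. The sources used here gave no chamber, dose, time or age, and did not say whether each library was a separate animal. The p-values below therefore speak of the spread among these libraries only, and part of it may be technical.

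Phosphodiesterases end cyclic nucleotide signals by hydrolysing cAMP, cGMP or both. In cardiomyocytes cAMP carries the beta-adrenergic signal to protein kinase A, which phosphorylates the calcium-handling and contractile proteins, and cGMP carries the nitric oxide and natriuretic peptide signals to protein kinase G. The families differ in substrate and control: PDE1 is activated by calcium and calmodulin, PDE3 hydrolyses cAMP and is inhibited by cGMP, PDE4, PDE7 and PDE8 prefer cAMP, and PDE5 prefers cGMP.

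Total estimated counts per library were between 28147230 and 106382357, and transcripts of 2 ribosomal RNA scaffolds took 77.6 to 90.8% of them. Counts outside those scaffolds and the mitochondrial genes came to 9029488 to 12906391 in DOCA plus JK07, 6871841 and 3296814 in DOCA and 8668685 to 13942689 in control. DOCA libraries 6 and 7 listed 19.2% and 23.8% of the 13430 expressed genes at 0, against 0.0968 to 1.57% in the other libraries. Values above 0 began at a transcript coverage of 1, so a gene listed at 0 lay under that minimum and was not shown to be absent. Of 11 cardiomyocyte markers, 9 were matched and all 9 were present in every group, with summed levels of 5120 to 8195 CPM (counts scaled to 1000000 per library) in DOCA plus JK07, 3606 to 5768 CPM in DOCA and 4187 to 5087 CPM in control. In bulk nuclei, fewer cells of a type and less RNA per cell cannot be told apart.

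In control nuclei 4 transcripts made up most of the set: PDE7A, a cAMP-specific enzyme known from T cells, PDE3A, the main PDE3 of cardiac muscle, and PDE4D and PDE4B, cAMP-specific enzymes inhibited by rolipram. Their control means were 11.4 ± 3.20 TPM (transcripts scaled to 1000000 per library) for PDE7A, 11.3 ± 2.16 TPM for PDE3A, 9.06 ± 2.64 TPM for PDE4D and 9.05 ± 2.79 TPM for PDE4B (SD, n = 5). TPM is scaled per transcript length, so it can be compared between genes. PDE1A followed at 4.96 ± 1.38 TPM, then PDE3B at 3.42 ± 0.739 TPM and PDE5A at 2.47 ± 0.572 TPM (SD, n = 5). The lowest 3 members were PDE8A at 1.81 ± 0.668 TPM, PDE1C at 1.49 ± 0.681 TPM and PDE4A at 1.20 ± 0.267 TPM (SD, n = 5). The mean of PDE7A was 9.54 times that of PDE4A.

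Neighbours in this order were close. In none of the 9 neighbouring pairs did the ranges over the 5 control libraries lie apart. PDE7A exceeded PDE3A in 2 of 5 libraries, and their means had a ratio of 1.01. PDE4D exceeded PDE4B in 3 of 5 libraries at a ratio of 1.00, and PDE1C exceeded PDE4A in 2 of 5 at a ratio of 1.25, so these pairs were not ordered beyond their spread. The widest step was from PDE4B to PDE1A, with a ratio of means of 1.82 and the same order in 4 of 5 libraries. PDE3A exceeded PDE4D, PDE1A exceeded PDE3B and PDE5A exceeded PDE8A in 5 of 5 libraries.

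**Figure D1:**
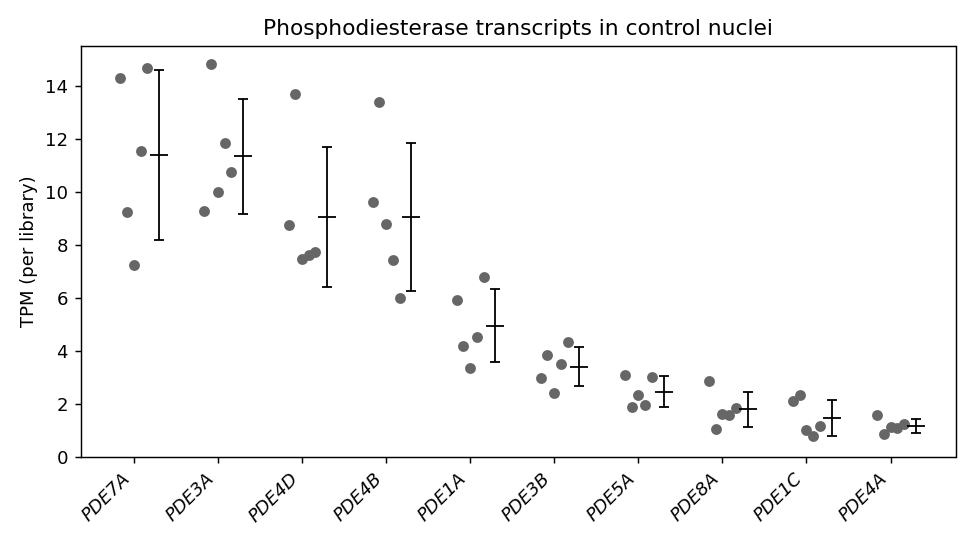
TPM of each phosphodiesterase in the 5 control libraries (grey points), with the mean and SD as a black bar to the right of the points, in order of the mean. PDE7A, PDE3A, PDE4D and PDE4B overlap at the top and PDE1C and PDE4A overlap at the bottom, at means of 1.49 and 1.20 TPM.

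The place of PDE7A depended on the measure. By the deposited gene coverage, which is also per base, the order began with PDE3A at a control mean of 43.6, followed by PDE4D at 26.5, PDE4B at 20.5 and PDE7A at 14.9. PDE8A held rank 6 by coverage and rank 8 by TPM, and PDE1A rank 7 by coverage and rank 5 by TPM. The gene length implied by counts and TPM varied by at most 1.04% over the libraries for any member. Counts and TPM therefore carry no information on which isoform was used, and the deposited coverage does not enter that length. In control, mean coverage ranged from 0.027 (PDE1C) to 0.994 (PDE3A) of that implied by TPM, and the reason was not tested.

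Among the PDE1 enzymes, which join calcium to cyclic nucleotide breakdown, PDE1A was lower in DOCA and was the member that differed in both comparisons with DOCA. PDE1A (ENSSSCG00000023924, chromosome 15, 87619067 to 87966491 on the minus strand of Sscrofa11.1) had 16.7, 15.5 and 5.79 CPM in DOCA plus JK07, 3.56 and 4.92 CPM in DOCA, and 17.6, 12.2, 11.2, 14.6 and 20.4 CPM in control. In CPM both DOCA libraries lay below every control library and below every DOCA plus JK07 library. Library 10 of DOCA plus JK07 lay near the DOCA libraries and below every control library. In the DOCA libraries these levels rest on 139 and 147 counts.

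In DOCA against control, PDE1A fell with a log2 fold change of -1.84 ± 0.45 (SE), or to 0.279 of the control level (edgeR quasi-likelihood test, Benjamini-Hochberg adjusted p = 0.016). It rose by 1.58 ± 0.47 on the log2 scale, or 2.99-fold, in DOCA plus JK07 against DOCA (edgeR adjusted p = 0.048). Against control, DOCA plus JK07 had a log2 fold change of -0.27 ± 0.35 (edgeR adjusted p = 1.0). Without library 6 the adjusted edgeR p for DOCA against control was 0.093 at a log2 fold change of -1.63, and with a weight per library in limma voom it was 0.19. The adjusted edgeR p for DOCA plus JK07 against DOCA was above 0.05 without any single library other than library 10, from 0.055 without library 5 to 0.16 without library 6, and it was 0.005 without library 10. It was also above 0.05 with RLE scaling (0.059), upper quartile scaling (0.081), no filter on low counts (0.0512), the 2 groups fitted alone (0.191), the ribosomal RNA scaffolds and mitochondrial genes left out (0.0542), limma on rescaled TPM (0.0781) and limma voom (0.303).

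PDE1C, the PDE1 that hydrolyses cAMP and cGMP about equally, was listed at 0 in both DOCA libraries. PDE1C (ENSSSCG00000016668, chromosome 18, 40820644 to 41409087 on the plus strand) had 1.10, 0 and 5.22 CPM in DOCA plus JK07, 0 and 0 CPM in DOCA, and 4.08, 4.43, 2.22, 1.70 and 2.30 CPM in control. Library 9 of DOCA plus JK07 was at 0 as well, and library 10 was above every control. The coverage minimum stood at 1.02 CPM in library 6, 1.33 CPM in library 7 and 0.478 CPM in library 9, below every control library. At the control mean of 2.94 CPM, 115 and 88.0 counts would have been listed in libraries 6 and 7, and 244 in library 9.

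PDE1C fell in DOCA against control (edgeR adjusted p = 0.047), and no fold is read against a group at 0. Its edgeR adjusted p was 0.072 in DOCA plus JK07 against DOCA, and 0.00263 without library 9, and its log2 fold change in DOCA plus JK07 against control was -0.49 (edgeR adjusted p = 1.0). Its call in DOCA against control was lost without any single library other than libraries 9 and 10, at edgeR adjusted p from 0.0689 without library 8 to 0.143 without library 6. It was also lost under upper quartile scaling (edgeR adjusted p = 0.0511), with no filter on low counts (edgeR adjusted p = 0.0513) and in limma voom (adjusted p = 0.428).

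**Figure D2:**
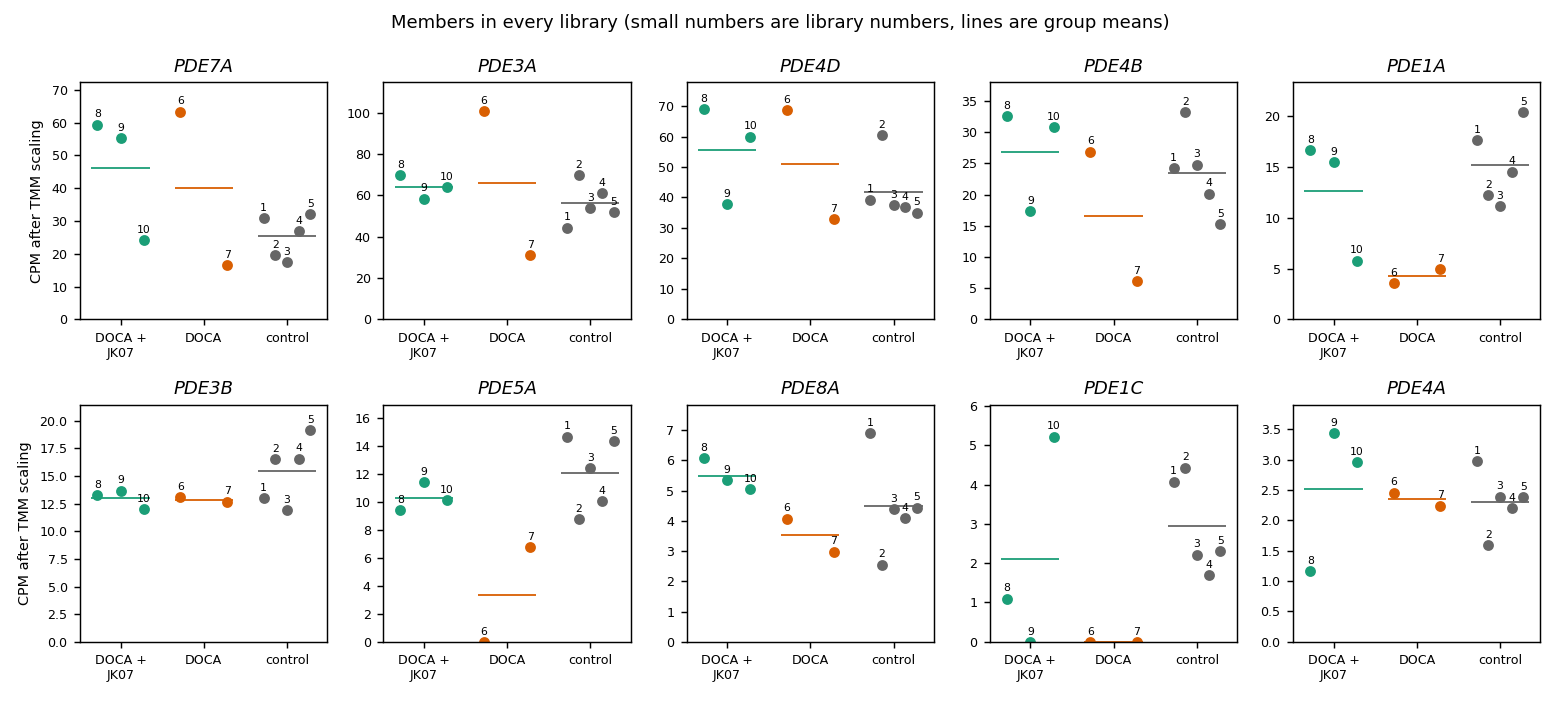
CPM after TMM scaling of the 10 members in every library, with DOCA plus JK07 (green) left of DOCA (orange) and control (grey), each panel on its own axis from 0. Small numbers are library numbers and lines are group means. PDE1A is low in libraries 6, 7 and 10, at 3.56, 4.92 and 5.79 CPM, and PDE1C is at 0 in libraries 6, 7 and 9.

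PDE1A and PDE1C were thus 2 of 10 members past the threshold in DOCA against control, where 25.5% of all genes tested passed, 19.7% lower and 5.73% higher. The count was 1 of 10 in DOCA plus JK07 against DOCA, where 17.0% passed, 14.7% higher and 2.25% lower. It was 0 of 10 in DOCA plus JK07 against control, where 0.0% passed: edgeR called no gene, 462 genes were higher and 341 lower at an unadjusted p under 0.05, and DESeq2 called 116. The first 2 comparisons share the DOCA libraries and the first and the last share the controls. Neither share of members stood above that of all genes. The split of calls over all genes depended on scaling: DOCA against control had 988 higher and 3403 lower, and with upper quartile scaling 1523 higher and 2868 lower. DOCA plus JK07 against DOCA had 2542 higher and 388 lower, and with upper quartile scaling 2095 higher and 752 lower.

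All genes tested had a median log2 fold change of -0.63 in DOCA against control, against a median of -0.30 for the 10 members, which is unchanged when PDE1C is put at the coverage minimum. Of the genes tested, 4791 were listed at 0 in both DOCA libraries, where no fold is read. Without them the all-gene median was -0.12 in DOCA against control and 0.15 in DOCA plus JK07 against DOCA, and that of the members without PDE1C was -0.26 and 0.21. With those genes at the coverage minimum, or at 0 where it was above the other group's mean, the all-gene median was 0.0 in both comparisons. The members' medians treated alike were -0.30 and 0.42. The all-gene median was -0.39 under upper quartile scaling, where PDE1A was at -1.59. The members' median was 0.42 in DOCA plus JK07 against DOCA, against 0.55 for all genes tested. It was 0.16 in DOCA plus JK07 against control, against -0.00 for all genes tested.

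PDE5A, the cGMP-specific enzyme inhibited by sildenafil, had one DOCA library at 0. PDE5A (ENSSSCG00000009106, chromosome 8, 104270881 to 104420953 on the plus strand) had 9.45, 11.4 and 10.1 CPM in DOCA plus JK07, 0 and 6.76 CPM in DOCA, and 14.7, 8.77, 12.4, 10.1 and 14.4 CPM in control. In CPM both DOCA libraries lay below every library of the other groups, and the other groups overlapped. As a share of the summed TPM of the 10 members, library 7 did not. It had 4.43%, against 2.89 to 5.25% in control and 2.36 to 3.56% in DOCA plus JK07. In library 6 the coverage minimum was 97.1 counts or 2.49 CPM, and the control mean of 12.1 CPM would have given 472 counts. The log2 fold change was -1.85 ± 1.21 in DOCA against control (SE, edgeR adjusted p = 0.297) and 1.62 ± 1.26 in DOCA plus JK07 against DOCA (edgeR adjusted p = 0.405). It was -0.23 ± 0.95 in DOCA plus JK07 against control (edgeR adjusted p = 1.0).

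Without library 6, the library at 0, the log2 fold change of PDE5A in DOCA against control was -0.84 (edgeR adjusted p = 0.0973). Without library 7 the remaining DOCA library was at 0, and PDE5A passed the threshold in DOCA against control (edgeR adjusted p = 3.04e-05) and in DOCA plus JK07 against DOCA (edgeR adjusted p = 3.82e-05), so its call depended on which DOCA library was left out. With limma on log2(TPM + 1), a scale that narrows the step to 0, PDE5A fell by 1.19 (limma adjusted p = 0.009). TPM in that fit was not rescaled for ribosomal RNA content, and 4844 of 18115 genes were called lower and 258 higher. In CPM, PDE1A, PDE1C and PDE5A were the 3 of 10 members with both DOCA libraries below every control, where 27.6% of all genes tested were so placed. No member had both above, where 10.2% did. On the same scale every DOCA plus JK07 library was above both DOCA libraries for PDE1A, PDE5A and PDE8A, 3 of 10 members against 30.3% of all genes tested. For no member was every such library below both, against 9.82%. No member had every DOCA plus JK07 library above or below every control, where 3.37% and 2.45% of all genes tested did.

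Smooth muscle cells and pericytes also express PDE1A and PDE5A, so their markers are given beside these results. The summed level of 10 of 10 matched smooth muscle and pericyte markers was 111 to 143 CPM in DOCA plus JK07, 80.0 and 84.2 CPM in DOCA and 93.3 to 146 CPM in control, and none was at 0 throughout a group. ABCC9 alone had 9.34 and 4.58 CPM in DOCA and 23.4 to 57.8 CPM in control. Without ABCC9 both DOCA sums lay within the range of the control sums. In DOCA against control 2 of the 10 markers fell, where 19.7% of all genes tested fell. These were RGS5, by 2.10, and ABCC9, by 2.47 on the log2 scale (edgeR adjusted p = 0.00579 and 0.00248). ABCC9 also encodes a channel subunit of cardiac muscle. Both RGS5 and ABCC9 rose in DOCA plus JK07 against DOCA (edgeR adjusted p = 0.0283 and 0.00312), where 14.7% of all genes tested rose. Of the 10 markers, 6 had a log2 fold change below 0 in DOCA against control. The median of the 10 was -0.34, against -0.63 for all genes tested. The part of these markers in the PDE1A and PDE5A results was not tested, nor was that of the lower depth of the DOCA libraries.

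Summed fibroblast markers were 586 to 1487 CPM in DOCA plus JK07, 561 and 2203 CPM in DOCA and 587 to 2325 CPM in control, with 8 of 8 matched and none at 0 throughout a group. Endothelial markers (8 of 8 matched) summed to 112 to 174 CPM in DOCA plus JK07, 111 and 185 CPM in DOCA and 118 to 256 CPM in control, and EMCN alone was at 0 in both DOCA libraries. Macrophage and monocyte markers (8 of 8 matched) summed to 24.1 to 69.8 CPM in DOCA plus JK07, 54.4 and 63.8 CPM in DOCA and 39.4 to 128 CPM in control, with LYVE1 at 0 in both DOCA libraries. Lymphocyte markers (5 of 5 matched) summed to 0.951 to 2.45 CPM in DOCA plus JK07, 0 CPM in DOCA and 1.11 to 1.93 CPM in control. Of these 5 markers, 3 were at 0 in every control library and 2 in every DOCA plus JK07 library as well.

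The PDE3 enzymes, which hydrolyse cAMP and are held back by cGMP, did not pass the test in any comparison. PDE3A (ENSSSCG00000028662, chromosome 5, 52409882 to 52738406 on the minus strand), the target of milrinone in the heart, had 69.9, 58.5 and 64.1 CPM in DOCA plus JK07, 101 and 31.0 CPM in DOCA, and 44.4, 69.7, 53.7, 61.1 and 52.0 CPM in control. In CPM the DOCA libraries were the highest and the lowest of all 10. The TMM factor was lowest in library 6, at 0.511, against 1.06 in library 7. On TPM rescaled outside ribosomal RNA scaffolds and mitochondrial genes, the DOCA mean was below the control mean. PDE3A had 94.6 ± 18.98 in DOCA and 114.5 ± 17.2 in control on that scale (SD, n = 2 and 5). Its log2 fold change was 0.23 ± 0.37 in DOCA against control (SE, edgeR adjusted p = 0.68), and its sign turned with the library left out, at -0.86 without library 6 (edgeR adjusted p = 0.05006) and 0.84 without library 7 (edgeR adjusted p = 0.029). PDE3A was at -0.04 ± 0.41 in DOCA plus JK07 against DOCA (edgeR adjusted p = 0.985), where it was at 1.05 without library 6 (edgeR adjusted p = 0.0287), and at 0.19 ± 0.33 in DOCA plus JK07 against control (edgeR adjusted p = 1.0).

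PDE3B (ENSSSCG00000013388, chromosome 2, 44412833 to 44726216 on the minus strand), best known for its role in insulin action in fat cells, lay between 11.9 and 19.1 CPM in all 10 libraries. It had 13.3, 13.7 and 11.98 CPM in DOCA plus JK07, 13.1 and 12.7 CPM in DOCA, and 13.0, 16.5, 11.9, 16.6 and 19.1 CPM in control. The 3 groups overlapped. The closeness of the DOCA libraries was particular to CPM. With TPM rescaled outside ribosomal RNA scaffolds and mitochondrial genes, PDE3B had 25.8 ± 14.9 in DOCA and 34.6 ± 6.96 in control (SD, n = 2 and 5). Its log2 fold change was -0.26 ± 0.20 in DOCA against control (edgeR adjusted p = 0.358), 0.01 ± 0.22 in DOCA plus JK07 against DOCA (edgeR adjusted p = 0.999) and -0.25 ± 0.17 in DOCA plus JK07 against control (edgeR adjusted p = 1.0). PSMA1 overlaps PDE3B on the other strand with a mean of 123 counts, against 960.4 counts for PDE3B, and the sources used here do not say whether strand was used in counting.

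The ratio of PDE3A to PDE3B in TPM was 3.91 to 4.89 in DOCA plus JK07, 7.05 and 2.23 in DOCA and 2.48 to 4.11 in control. The DOCA libraries again stood at both ends.

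The PDE4 enzymes, which limit cAMP near beta-adrenergic receptors and calcium channels, also missed the threshold in every comparison. PDE4D (ENSSSCG00000016929, chromosome 16, 37897302 to 39306364 on the minus strand), the PDE4 known from the ryanodine receptor complex, had 68.9, 37.8 and 60.0 CPM in DOCA plus JK07, 68.8 and 32.9 CPM in DOCA, and 39.3, 60.4, 37.4, 36.9 and 35.01 CPM in control. Control library 2 stood apart from the other controls, and the groups overlapped. PDE4D had a log2 fold change of 0.28 ± 0.35 in DOCA against control (edgeR adjusted p = 0.574), 0.13 ± 0.38 in DOCA plus JK07 against DOCA (edgeR adjusted p = 0.875) and 0.41 ± 0.30 in DOCA plus JK07 against control (edgeR adjusted p = 1.0). PDE4D spans 1409 kb and 5 annotated genes overlap it, one with a mean of 801.5 counts, against 3217 counts for PDE4D.

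PDE4B (ENSSSCG00000003805, chromosome 6, 146166688 to 146719682 on the minus strand), the PDE4 tied in mice to the L-type calcium channel, had 32.5, 17.4 and 30.8 CPM in DOCA plus JK07, 26.9 and 6.12 CPM in DOCA, and 24.2, 33.2, 24.8, 20.2 and 15.3 CPM in control. Library 7 was the lowest of all, and library 6 lay within the controls. PDE4B had a log2 fold change of -0.51 ± 0.53 in DOCA against control (edgeR adjusted p = 0.499), 0.70 ± 0.57 in DOCA plus JK07 against DOCA (edgeR adjusted p = 0.428) and 0.19 ± 0.44 in DOCA plus JK07 against control (edgeR adjusted p = 1.0). The value of DOCA against control was -1.94 without library 6 (edgeR adjusted p = 0.0227) and 0.19 without library 7. That of DOCA plus JK07 against DOCA was 2.14 without library 6 (edgeR adjusted p = 0.0188) and 0.0050 without library 7.

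PDE4D and PDE4B kept near equal levels outside DOCA. The ratio of PDE4D to PDE4B in TPM was 1.09 to 1.22 in DOCA plus JK07, 1.44 and 3.02 in DOCA and 0.848 to 1.28 in control. Both DOCA ratios lay above every other library. This ratio was computed after the values of the members had been seen and has no test.

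PDE4A (ENSSSCG00000013642, chromosome 2, 69225708 to 69266702 on the plus strand), another PDE4, was low throughout. It had 1.17, 3.44 and 2.95 CPM in DOCA plus JK07, 2.46 and 2.24 CPM in DOCA, and 2.97, 1.59, 2.39, 2.20 and 2.38 CPM in control, so the groups overlapped. PDE4A had a log2 fold change of 0.03 ± 0.41 in DOCA against control (edgeR adjusted p = 0.972) and of 0.10 ± 0.45 in DOCA plus JK07 against DOCA (edgeR adjusted p = 0.929). Its value is uncertain, because CDC37 on the other strand overlaps it with a mean of 257 counts, against 158.5 counts for PDE4A.

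PDE7A and PDE8A are cAMP-specific enzymes that the common inhibitors of PDE3 and PDE4 leave active. PDE7A (ENSSSCG00000006218, chromosome 4, 68779540 to 68896577 on the plus strand) had 59.4, 55.2 and 24.1 CPM in DOCA plus JK07, 63.4 and 16.6 CPM in DOCA, and 30.9, 19.6, 17.6, 26.9 and 32.0 CPM in control. Libraries 6, 8 and 9 stood above every control, and libraries 7 and 10, of the same groups, did not. PDE7A had a log2 fold change of 0.66 ± 0.50 in DOCA against control (edgeR adjusted p = 0.358), 0.21 ± 0.57 in DOCA plus JK07 against DOCA (edgeR adjusted p = 0.859) and 0.87 ± 0.44 in DOCA plus JK07 against control (edgeR adjusted p = 1.0). In DOCA against control it was -0.61 without library 6 and 1.31 without library 7.

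PDE8A (ENSSSCG00000001810, chromosome 7, 52410779 to 52557645 on the minus strand), a high-affinity cAMP enzyme, had 6.07, 5.34 and 5.05 CPM in DOCA plus JK07, 4.07 and 2.98 CPM in DOCA, and 6.91, 2.55, 4.39, 4.10 and 4.43 CPM in control. In CPM the 3 DOCA plus JK07 libraries lay above both DOCA libraries, and the controls overlapped both groups. As a share of the summed TPM of the 10 members, at 3.00 to 3.34%, they lay between the DOCA libraries, at 2.04 and 3.87%. Its log2 fold change was -0.34 ± 0.35 in DOCA against control (edgeR adjusted p = 0.487), 0.64 ± 0.38 in DOCA plus JK07 against DOCA (edgeR adjusted p = 0.287) and 0.29 ± 0.29 in DOCA plus JK07 against control (edgeR adjusted p = 1.0).

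**Figure D3:**
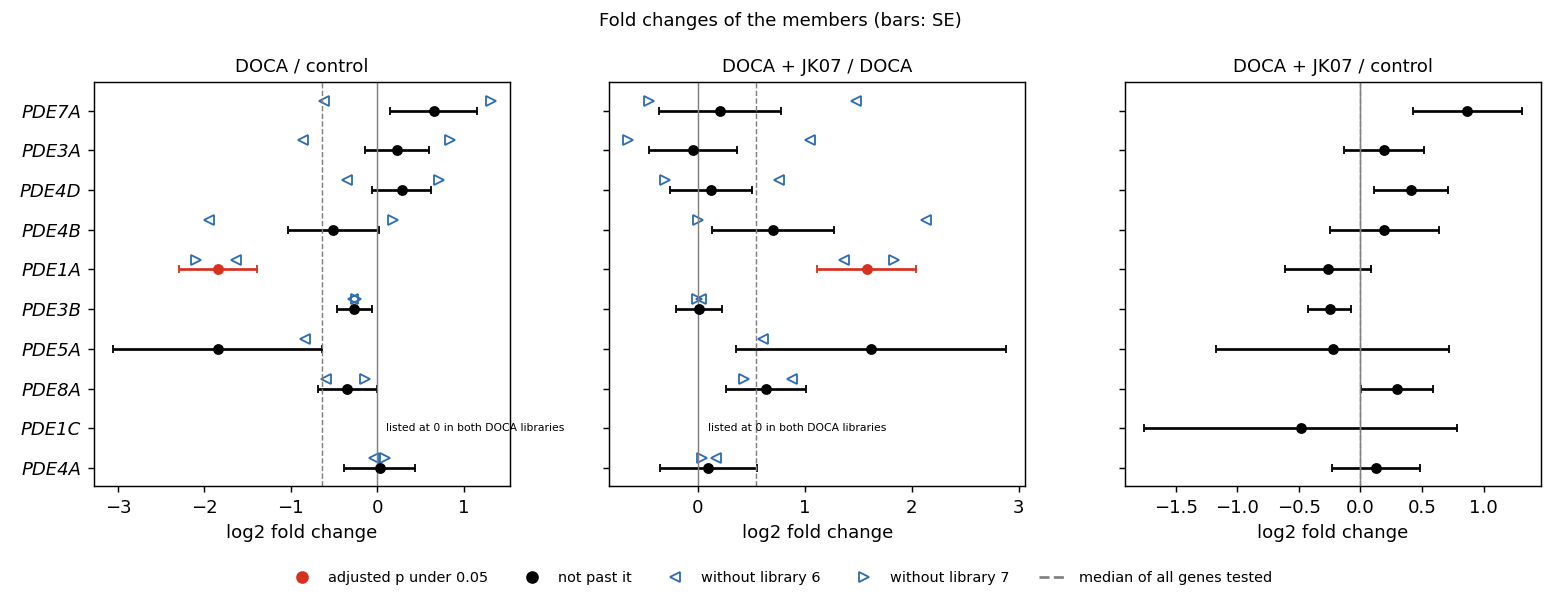
Log2 fold changes of the members (points) with SE (bars) in the 3 comparisons, named above each panel, red where the edgeR adjusted p was under 0.05. Open triangles are fits without library 6 or 7, and the dashed line is the median of all genes tested, -0.63, 0.55 and -0.00. PDE1A keeps its sign without either DOCA library, PDE3A, PDE4A, PDE4B, PDE4D and PDE7A lie on both sides of 0 in DOCA against control, PDE1C has no fold against DOCA, and PDE5A without library 7 is not drawn because the remaining DOCA library is at 0.

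Shares within a library do not depend on its ribosomal RNA content, and they do not show the level of the whole set. With TPM rescaled outside ribosomal RNA scaffolds and mitochondrial genes, the 10 members summed to 554 to 750 in DOCA plus JK07, 429 and 406 in DOCA and 503 to 593 in control. In limma on log2(TPM + 1) of that scale, all genes tested had a median log2 fold change of -0.84 in DOCA against control. PDE7A made up 32.4, 37.6 and 17.6% of the summed TPM of the 10 members in DOCA plus JK07, 35.1 and 23.7% in DOCA, and 23.6, 14.1, 15.97, 22.2 and 25.5% in control. It was the most abundant member in 6 of 10 libraries (1, 5, 6, 7, 8 and 9), and PDE3A was in the other 4. PDE1A made up 6.60, 7.65 and 3.07% in DOCA plus JK07, 1.43 and 5.10% in DOCA, and 6.40 to 11.8% in control. Both DOCA shares of PDE1A lay below every control, as did that of library 10. The share of library 10 also lay below that of DOCA library 7, so on this measure DOCA and DOCA plus JK07 overlapped.

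PDE3A held 17.2 to 21.1% in DOCA plus JK07, 25.2 and 20.01% in DOCA and 15.3 to 22.8% in control. PDE4D held 12.4 to 21.1% in DOCA plus JK07, 18.4 and 22.7% in DOCA and 13.4 to 21.0% in control. PDE4B held 10.1 to 19.3% in DOCA plus JK07, 12.8 and 7.51% in DOCA and 10.4 to 20.5% in control. For these 3 members the groups overlapped. Together with PDE7A they took 78.2 to 83.0% in DOCA plus JK07, 91.4 and 73.9% in DOCA and 68.0 to 78.3% in control. Their order by mean TPM was PDE7A, PDE3A, PDE4D and PDE4B in each of the 3 groups.

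**Figure D4:**
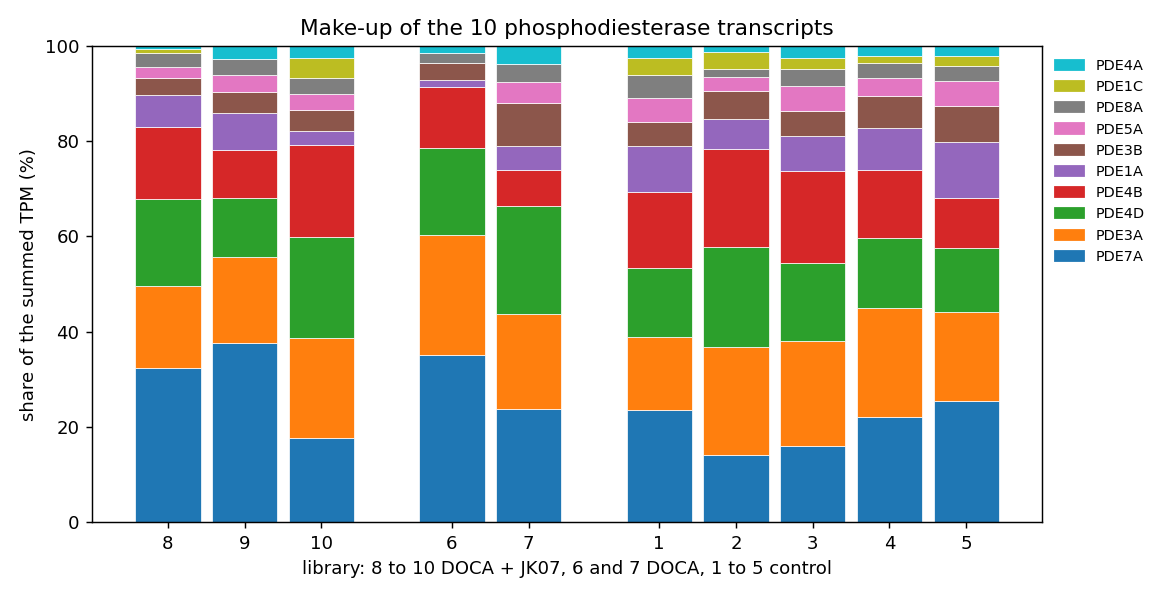
Share of each member in the summed TPM of the 10 members, one bar per library, with DOCA plus JK07 at the left, DOCA in the middle and control at the right. PDE7A takes 14.1 to 37.6% of a bar, and PDE1A is narrowest in libraries 6 and 10, at 1.43 and 3.07%.

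Of 14 further genes with a PDE name, 8 entered the test, among them PDE6D, which is not catalytic. The highest in control were PDE2A, which is stimulated by cGMP, at 1.34 ± 0.445 TPM, PDE10A, a dual-substrate enzyme best known in striatum, at 1.32 ± 0.481 TPM, and PDE7B, the relative of PDE7A, at 1.23 ± 0.299 TPM (SD, n = 5). They stood at the level of PDE1C and PDE4A. In DOCA against control 3 of the 8 fell, where 19.7% of all genes tested fell. These were PDE7B, PDE6D and PDE1B, each listed at 0 in both DOCA libraries (edgeR adjusted p = 2.1e-05, 0.000997 and 0.0395). PDE7B and PDE6D rose in DOCA plus JK07 against DOCA (edgeR adjusted p = 2.44e-05 and 0.000911), where 14.7% of all genes tested rose. Being listed at 0 in both DOCA libraries and above 0 in every control applied to 10.9% of all genes tested.

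The coverage minimum bears on these 3 unequally. PDE7B had a control mean of 4.34 CPM, against a minimum of 1.80 CPM in library 6 and 2.35 CPM in library 7. PDE6D, a prenyl-binding chaperone with no catalytic role, had a control mean of 1.37 CPM, near its minimum of 0.928 and 1.21 CPM. PDE1B, the remaining PDE1, had a control mean of 0.966 CPM, under its minimum of 1.08 and 1.41 CPM, so its level in control would also have been listed at 0 at the depth of the DOCA libraries. PDE2A and PDE10A were above 0 in all 10 libraries, with log2 fold changes of 0.21 ± 0.44 and 0.60 ± 0.43 in DOCA against control (edgeR adjusted p = 0.758 and 0.332).

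The other genes of cyclic nucleotide signalling were read from 8 lists with 83 genes, of which 75 were matched and 65 tested. In DOCA against control 5 rose and 16 fell, with 7 of the 16 listed at 0 in both DOCA libraries, where 5.73% of all genes tested rose and 19.7% fell. The calls in DOCA plus JK07 against DOCA were 13 higher, 6 of them of genes listed at 0 in both DOCA libraries, and 2 lower, where 14.7% of all genes tested were higher and 2.25% lower. None of the 65 was called by edgeR in DOCA plus JK07 against control. The median log2 fold change of the 65 in DOCA against control was -0.57, against -0.63 for all genes tested, and -0.07 without the 12 genes at 0 in both DOCA libraries, against -0.12 for all genes tested without such genes. It was 0.67 in DOCA plus JK07 against DOCA, against 0.55 for all genes tested, and 0.26 without those genes, against 0.15 for all genes tested. With such genes put at the coverage minimum, or at 0 where that minimum was above the mean of the other group, the medians were -0.07 and 0.24 for the list, against 0.0 for all genes tested in both comparisons.

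Of the enzymes that make the nucleotides, 1 of 8 tested adenylyl cyclases rose in DOCA against control, where 5.73% of all genes tested rose. ADCY6, a main cardiac isoform and the highest of the list at 16.8 ± 5.50 TPM in control (SD, n = 5), had a log2 fold change of 0.04 ± 0.49 (edgeR adjusted p = 0.964). Of 5 tested guanylyl cyclase genes, 3 fell, where 19.7% of all genes tested fell, and all 3 were at 0 in both DOCA libraries. They include GUCY1A1 and GUCY1B1, the subunits of the nitric oxide receptor (edgeR adjusted p = 0.000138 and 0.000458), which also rose in DOCA plus JK07 against DOCA (edgeR adjusted p = 0.000179 and 0.000642). Their control means were 2.26 and 2.16 CPM, against minimums of 1.54 and 1.53 CPM in library 7. The remaining gene of the 3 had a control mean of 1.72 CPM. That was near its minimum of 1.69 CPM in library 6 and under that of 2.21 CPM in library 7. NPR2, the receptor of C-type natriuretic peptide and the highest of the list at 3.91 ± 0.487 TPM (SD, n = 5), had a log2 fold change of 0.32 ± 0.18 in DOCA against control (edgeR adjusted p = 0.23).

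Among receptors and G proteins, 2 of 7 tested genes fell and 1 rose in DOCA against control, where 19.7% of all genes tested fell and 5.73% rose. CHRM2, the muscarinic receptor of the heart, had 17.1, 13.1 and 25.4 CPM in DOCA plus JK07, 6.04 and 4.78 CPM in DOCA, and 16.6 to 46.7 CPM in control. It fell by 2.22 ± 0.49 on the log2 scale in DOCA against control (SE, edgeR adjusted p = 0.0101) and rose by 1.77 ± 0.51 in DOCA plus JK07 against DOCA (edgeR adjusted p = 0.0414). No library of DOCA reached the lowest of DOCA plus JK07. GNAI2, an inhibitory G protein subunit and the highest of the list at 6.88 ± 1.71 TPM in control (SD, n = 5), had a log2 fold change of 0.42 ± 0.28 in DOCA against control (edgeR adjusted p = 0.298).

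Among cAMP effectors, 4 of 17 tested fell and 1 rose in DOCA against control, near the 19.7% and 5.73% of all genes tested. RAPGEF4, the cAMP-activated exchange factor EPAC2, fell by 1.21 ± 0.23 on the log2 scale (SE, edgeR adjusted p = 0.00394) and rose by 1.17 ± 0.24 in DOCA plus JK07 against DOCA (edgeR adjusted p = 0.00787). PKIG, an inhibitor of protein kinase A, rose by 2.02 ± 0.41 in DOCA against control (edgeR adjusted p = 0.00622), with 40.9 and 9.70 CPM in DOCA against 4.90 to 7.77 CPM in control. POPDC2, a cAMP-binding membrane protein and the highest of the list at 14.7 ± 3.82 TPM in control (SD, n = 5), had a log2 fold change of 0.35 ± 0.53 (edgeR adjusted p = 0.655). Of 3 tested cGMP effectors, VASP, a substrate of protein kinase G, rose by 0.98 ± 0.20 in DOCA against control (edgeR adjusted p = 0.00636) and fell by 0.88 ± 0.22 in DOCA plus JK07 against DOCA (edgeR adjusted p = 0.0253). PRKG1, protein kinase G itself, was the highest of that list at 4.33 ± 1.09 TPM in control (SD, n = 5), with a log2 fold change of -0.07 ± 0.30 (edgeR adjusted p = 0.881).

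Of the scaffolds that hold protein kinase A and phosphodiesterases in place, 5 of 12 tested fell in DOCA against control, where 19.7% of all genes tested fell, and 4 rose in DOCA plus JK07 against DOCA, where 14.7% rose. AKAP9, which holds PDE4D at the slow potassium channel, had 55.1, 49.5 and 57.8 CPM in DOCA plus JK07, 20.04 and 18.2 CPM in DOCA, and 47.3, 64.2, 52.6, 50.6 and 44.0 CPM in control. The DOCA libraries lay apart from the other 8, and AKAP9 fell by 1.44 ± 0.19 in DOCA against control (SE, edgeR adjusted p = 0.000467) and rose by 1.50 ± 0.20 in DOCA plus JK07 against DOCA (edgeR adjusted p = 0.000547). AKAP11 fell by 1.58 ± 0.29 (edgeR adjusted p = 0.00374) and rose by 1.45 ± 0.31 in the same comparisons (edgeR adjusted p = 0.00955). AKAP5 and AKAP7 were at 0 in both DOCA libraries (edgeR adjusted p = 4.6e-05 and 6.63e-05 in DOCA against control, 5.56e-05 and 7.58e-05 in DOCA plus JK07 against DOCA). The control mean of AKAP5, 2.22 CPM, was close to its minimum of 1.96 CPM in library 7. PDE4DIP, a PDE4D-binding protein and the highest of the list at 69.5 ± 23.0 TPM in control (SD, n = 5), had a log2 fold change of 0.18 ± 0.40 (edgeR adjusted p = 0.782).

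Of 6 tested substrates of protein kinase A, PLN, the inhibitor of the calcium pump, had 10.2, 7.32 and 12.5 CPM in DOCA plus JK07, 1.89 and 1.30 CPM in DOCA, and 21.7, 22.0, 10.1, 18.1 and 11.3 CPM in control. It fell by 3.37 ± 0.45 on the log2 scale in DOCA against control (SE, edgeR adjusted p = 0.000471) and rose by 2.64 ± 0.45 in DOCA plus JK07 against DOCA (edgeR adjusted p = 0.00242). TNNI3, cardiac troponin I and the highest of the list at 181 ± 50.9 TPM in control (SD, n = 5), had a log2 fold change of 0.28 ± 0.36 in DOCA against control (edgeR adjusted p = 0.593). Of 7 tested transcription factors and coactivators, ATF2, a factor that binds cAMP response elements, was the highest in control at 6.43 ± 0.441 TPM (SD, n = 5). It fell by 1.96 ± 0.27 in DOCA against control (edgeR adjusted p = 0.000646) and rose by 1.68 ± 0.28 in DOCA plus JK07 against DOCA (edgeR adjusted p = 0.00243).

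**Figure D5:**
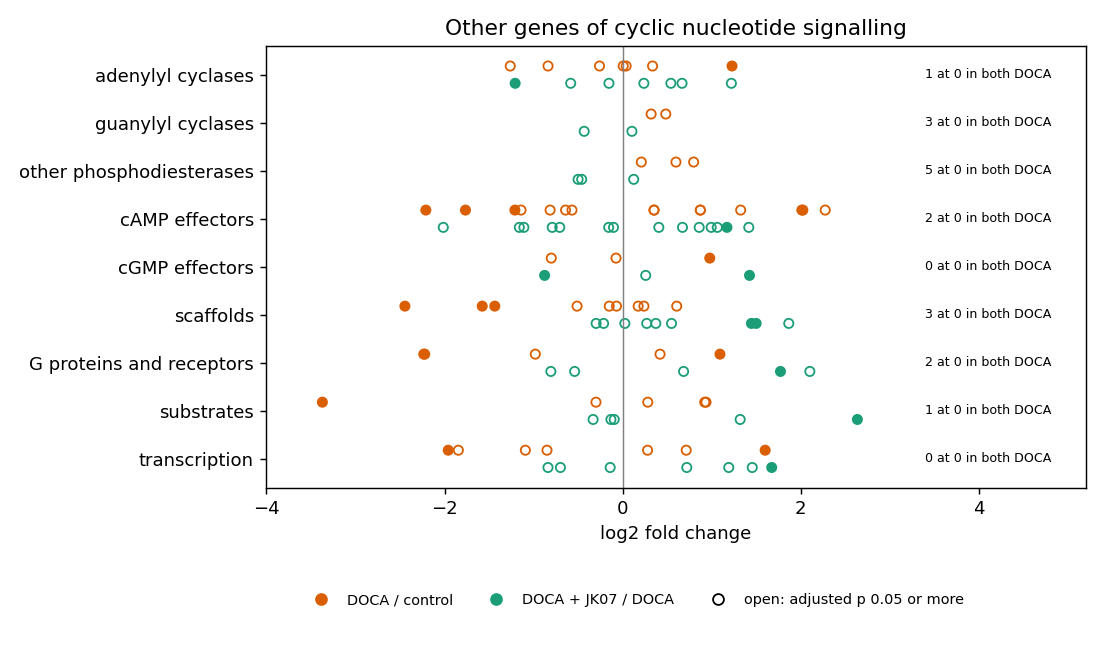
Log2 fold changes of the tested genes of each list in DOCA against control (orange, upper row of each list) and DOCA plus JK07 against DOCA (green, lower row), filled where the edgeR adjusted p was under 0.05. Genes at 0 in both DOCA libraries are counted at the right and not drawn. PLN lies farthest to the left, at -3.37, and the scaffolds AKAP9 and AKAP11 are filled in both rows.

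The genes whose levels over the 10 libraries were most like those of the abundant members were ranked by the root mean square difference of their centred log2 CPM, among 4765 genes. Over the 10 libraries PDE3A was closest to ATP6V0A1 (0.129), NEK7, SEMA4D, TBC1D1 and ARHGAP10, and PDE4D to TANC1 (0.138), FRY, PPP1R12A, GABARAPL1 and ITPR2. PDE7A was closest to P4HA1 (0.320), DNMT1, CCNYL1, PER1 and WEE1, a looser match, beside a spread of its own of 0.667 on the same scale. These profiles share depth and scaling within each library.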

How the data were processed

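Nuclear RNA of sorted minipig cardiomyocytes was measured in 10 libraries, grouped by the treatment in the labels. The genome build was Sscrofa11.1 and the tools included edgeR, StringTie and SAMtools, per the submitters' processing notes. Aligner, versions and strand setting are not given in the sources used here. A table of coverage signal, FPKM and TPM per gene was deposited for each library, per the file headers. The authors also deposited a table of estimated counts with no gene column. These are whole numbers, so rounding moved none. Its lines were joined to the gene identifiers in sorted order, so that 99.998% of values were 0 in both kinds of table or in none, against 62.6% after a shift of 1 line, and all 10 columns were closest to their own library.

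Counts were tested by quasi-likelihood F tests (R 4.3.3, edgeR 4.0.16) after filterByExpr and TMM scaling, in 1 model of all 10 libraries with group as its term (biological coefficient of variation 0.873). P-values were adjusted by Benjamini-Hochberg over the 17251 tested genes, and 0.05 was the threshold. CPM was computed after TMM scaling, and errors are SD. The SE of a log2 fold change is approximate: its absolute value divided by the square root of F. Alternatives were DESeq2 1.42.0, limma 3.58.1 on log2(TPM + 1) and log2(TPM + 0.1), limma voom with library weights, other scalings, no filter and leaving out each library. FPKM was used only for the order in control.

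The members and lists were chosen with earlier results of these data known. Named were all members, other phosphodiesterases that passed or were among the 3 highest in control, and from the 8 lists at most 12 genes per comparison by adjusted p plus the highest of each list. One gene that this rule names is not reported here. RGS5, ABCC9, EMCN and LYVE1 among the markers were named after their values were seen. Likeness used log2(CPM + 1), centred per gene, of genes with a symbol and at least 5 CPM on average. Of the listed genes, GUCY2F, CNGB1, AKAP2, AKAP13, AKAP14, SYNM, GNAS, CREM, TTN and MYL7 were not matched and are not analysed here. Precision is limited by depth, which outside the ribosomal RNA scaffolds was lowest in the DOCA libraries, and SE covers the spread between libraries.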

Additional observations from a re-analysis of the deposited data

Results flagged for a closer look

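PDE4D in control library 2 stood apart from the other 4 controls, at 60.4 CPM and at 13.7 TPM. The gap to the next control was large against the range of the group on both scales. Chance marks about 1 in 20 such groups, and 10 members were looked at in the control group, so a mark among them is not unusual. The groups of 2 and 3 libraries were too small for this check. No explanation was tested.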

How the results depend on the processing

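Of the members' log2 fold changes, 162 of the values under alternatives in DOCA against control, 144 in DOCA plus JK07 against DOCA and 194 in DOCA plus JK07 against control kept their sign and side of the threshold. PDE1A kept its sign under every alternative in both comparisons with DOCA. Among all genes, limma voom with library weights called 161 in DOCA against control and 5 in DOCA plus JK07 against DOCA. In the second comparison DESeq2 called 5049, limma on log2(TPM + 0.1) 6075 and limma on log2(TPM + 1) 5524. In DOCA plus JK07 against control DESeq2 called 116, limma on log2(TPM + 1) 3 and voom 8. Leaving out 1 library gave 3307 to 5286, 2277 to 4455 (the highest without library 7) and 0 genes in the 3 comparisons.

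Members called in DOCA against control were 4 with limma on log2(TPM + 0.1) and on TPM rescaled outside ribosomal RNA scaffolds and mitochondrial genes, 0 with voom, 1 with no filter and with upper quartile scaling, and 1 to 3 without 1 library. In DOCA plus JK07 against DOCA they were 2 with DESeq2, 4 with limma on log2(TPM + 0.1) and on log2(TPM + 1), 0 to 2 without 1 library, and 0 with RLE scaling, voom, no filter, upper quartile scaling, the 2 groups only or without ribosomal RNA scaffolds and mitochondrial genes.

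Signs turned in these fits, with no adjusted p under 0.05 among them. In DOCA against control, limma on log2(TPM + 0.1), on log2(TPM + 1) and on rescaled TPM gave -0.52, -0.47 and -0.27 for PDE3A, -0.44, -0.24 and -0.21 for PDE4A and -0.32, -0.29 and -0.068 for PDE4D, and the first pair gave -0.14 and -0.13 for PDE7A. In DOCA plus JK07 against DOCA, PDE3A was at 0.93, 0.86 and 0.40 in those fits and 0.15 with voom. PDE3B was at -0.094 with DESeq2, -0.096 with RLE scaling, -0.044 with the 2 groups only, -0.24 with upper quartile scaling and -0.041 without ribosomal RNA scaffolds and mitochondrial genes. PDE4A was at -0.017 with DESeq2, -0.018 with RLE scaling, -0.035 with voom and -0.14 with upper quartile scaling, which put PDE4D at -0.10 and PDE7A at -0.011. In DOCA plus JK07 against control, PDE4A was at -0.049 on rescaled TPM, and PDE5A at 0.0018 on log2(TPM + 0.1). The cause was not tested.

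Leaving out 1 library turned further signs. The ranges in DOCA against control were -0.86 to 0.84 for PDE3A, -0.041 to 0.19 for PDE4A, -1.94 to 0.19 for PDE4B, -0.35 to 0.71 for PDE4D and -0.61 to 1.31 for PDE7A. In DOCA plus JK07 against DOCA they were -0.65 to 1.05 for PDE3A, -0.060 to 0.035 for PDE3B, -0.19 to 0.39 for PDE4A, -0.30 to 0.76 for PDE4D and -0.45 to 1.48 for PDE7A, and PDE4B, with no change of sign, ranged over 0.0050 to 2.14. Without library 6, PDE3A and PDE4B were called (edgeR adjusted p = 0.0287 and 0.0188), and PDE5A was called without library 7. In DOCA plus JK07 against control they were -0.52 to 0.078 for PDE1A, -2.43 to 0.10 for PDE1C and -0.16 to 0.47 for PDE4A. In fits without 1 DOCA library the other is assumed to vary like the other groups.

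In the order of control levels, coverage kept 0 places and leaving out 1 control kept 6 to 10. FPKM kept all 10, which is no separate support, because FPKM and TPM rank the genes of a library alike. As shares of summed counts, which favour long transcripts, PDE3A held 28.2%, PDE4D 20.8%, PDE7A 12.8%, PDE4B 11.8%, PDE3B 7.74%, PDE5A 6.15%, PDE1C 1.46% and PDE4A 1.17% in control. No paired analysis was possible because library numbers 1 to 10 were each used once and no number was shared between groups. With 2 DOCA libraries of low depth, p-values against DOCA draw mostly on how the control and JK07 libraries vary, and members near the coverage minimum cannot be told from absent ones.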
